A study of Brassica carinata with 12 samples.

Results

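The genes described here are 74 neighbours on chromosome B01 of Brassica carinata, taken as every gene ID from BcaB01g05996 to BcaB01g06069, expressed or not, out of 6405 genes on B01 and 97149 in the deposited count table. The stretch was picked because genes in it stood higher at mitosis than at meiosis in these same libraries, so differences between the stages are given as a description, without a test. The name "rising at mitosis" holds for only some of the genes. Of the 74, 22 had a mean level at least 4-fold higher at mitosis in at least 1 of the forms, haploid or tetraploid, and most of the signal lay in 6 adjacent genes, BcaB01g06046 to BcaB01g06051. These 6 gave 89.4% ± 0.372 of the stretch's counts in haploid anthers at mitosis and 84.8% ± 0.487 in tetraploid anthers at mitosis (SD, n = 3 libraries each). At meiosis each of them had between 0 and 4 counts over the 3 libraries of a form, apart from 238 counts of BcaB01g06049 in tetraploid anthers.

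RNA of anthers was sequenced from synthetic B. carinata, a cross with B.oleracea var. alboglabra as the mother and B.nigra as the father. The 4 groups, of 3 libraries each, were haploid anthers (genotype BC) at mitosis, the stage of gametogenesis (BCMi), tetraploid anthers (genotype BBCC, made with ovule culture and colchicine) at mitosis (BBCCMi), haploid anthers at meiosis, the stage of sporogenesis (BCMe), and tetraploid anthers at meiosis (BBCCMe). The tissue is labelled as young anther (pollen) at meiosis and as anther (pollen) at mitosis, while the extraction protocol names floral buds. How many plants a library pools, and whether replicates are separate plants, the labels leave unsaid, and the p-values therefore describe library-to-library spread that may be technical. Total counts per library ranged from 15769687 to 16793767, and replicate libraries differed by more than sampling noise, with a mean chi-square per gene of 2.52 to 3.08.

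In an anther, meiosis turns pollen mother cells into microspores, and mitosis within each microspore then gives the vegetative and generative cells of the pollen grain. The tapetum, the innermost layer of the anther wall, feeds the microspores and breaks down late in pollen development. A plant with a single B and a single C chromosome set lacks homologous partners at meiosis, and doubling with colchicine supplies them. Neighbouring genes in plant genomes are often tandem copies of one another. The files pair no ID with a gene name, so no role is given for any gene, and the labelled tissue was not checked against markers. In whole anthers, fewer cells of a type and less RNA per cell cannot be told apart.

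The 74 genes were classed by their mean CPM, the count relative to the library's total after scaling by the TMM method. A gene was counted as higher at mitosis when its mean there was at least 1 CPM and at least 4 times its mean at meiosis, the lower mean being taken as no less than the level of 3 counts per library, 0.171 to 0.199 CPM. Genes lower at mitosis were counted by the same rule with the stages exchanged. In the haploid 15 of the 74 were higher at mitosis, against 4.63% of all genes in the table, and the tetraploid had 17, against 7.03%. In both forms 10 were higher (3.74% of all genes), and at a 16-fold minimum 7 were higher in the haploid (1.69%), 11 in the tetraploid (2.95%) and 7 in both forms (1.48%). The stretch was chosen on this contrast, so nothing is read from these shares. At least 4-fold lower at mitosis were 3 genes in the haploid (3.57% of all genes), and the same 3 (2.76% for both forms) with 2 more in the tetraploid (4.15%). A further 19 stayed under 4-fold in both forms, 23 were under 1 CPM in every group, and 5 had no count in any library.

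**Figure D1:**
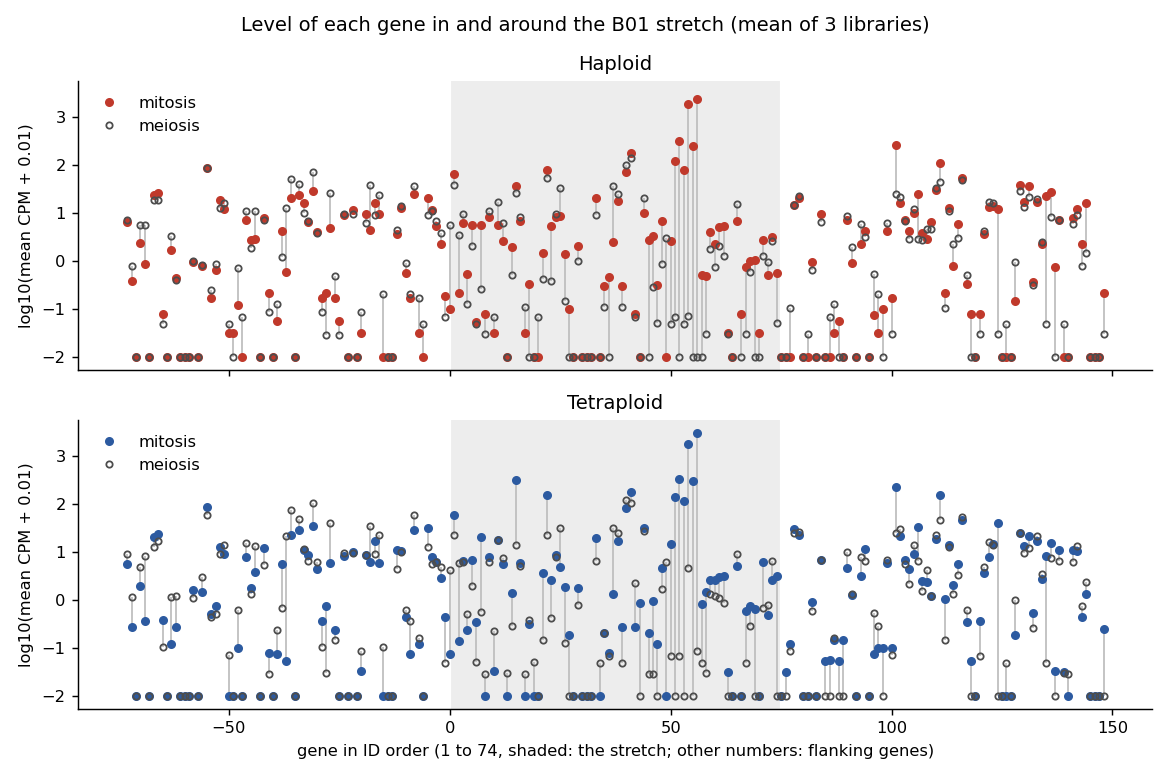
Mean level of each gene in ID order, as log10(mean CPM + 0.01) over 3 libraries, in haploid and tetraploid anthers, with filled points for mitosis, open points for meiosis, the 74 genes of the stretch shaded, and 74 flanking genes on each side. The 6 adjacent genes BcaB01g06046 to BcaB01g06051 reach up to 2930 CPM at mitosis and lie under 0.1 CPM at meiosis, apart from BcaB01g06049 at 4.51 CPM in tetraploid anthers.

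The block of 6 held some of the most abundant transcripts of these anthers at mitosis. BcaB01g06051 measured 2264, 2333 and 2501 CPM in haploid anthers at mitosis, against 0 counts in all 3 haploid libraries at meiosis (at least 13709-fold higher). In tetraploid anthers it measured 2778, 2984 and 3027 CPM at mitosis, against 1, 1 and 2 counts at meiosis (ratio 38156). That ratio rests on these few meiosis counts, has no interval given, and is not set against the haploid bound. The stages were far apart in both forms. Among all 97149 genes, ordered by mean FPKM at mitosis (a level per gene length), BcaB01g06051 ranked 13 in haploid anthers and 5 in tetraploid anthers.

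BcaB01g06049 was of similar abundance, at 1806, 1815 and 1860 CPM in haploid anthers at mitosis, against 0, 0 and 3 counts at meiosis (ratio 31169, exact 95% counting interval 10869 to 154030). Tetraploid anthers had 1747, 1749 and 1704 CPM at mitosis, against 3.87, 5.47 and 4.21 CPM at meiosis (ratio 384). It was the 1 gene of the block above 1 CPM at meiosis, in the tetraploid libraries. By mean FPKM at mitosis it ranked 11 in haploid anthers and 7 in tetraploid anthers.

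The other 4 genes of the block were less abundant in counts. BcaB01g06047 measured 295, 313 and 341 CPM in haploid anthers at mitosis, against 0 counts at meiosis (at least 1832-fold higher). Tetraploid libraries had 301, 344 and 325 CPM at mitosis, against 1, 2 and 0 counts at meiosis (ratio 5781, exact 95% counting interval 1939 to 27487). The libraries of the forms overlapped at mitosis. BcaB01g06050 had 0 counts in all 6 meiosis libraries. At mitosis it measured 243, 244 and 256 CPM in haploid anthers (at least 1436-fold higher than at meiosis) and 281, 295 and 316 CPM in tetraploid anthers (at least 1738-fold higher than at meiosis).

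BcaB01g06046, the first gene of the block, had 119.9, 124 and 114 CPM in haploid anthers at mitosis, against 0, 3 and 0 counts at meiosis (ratio 2105, exact 95% counting interval 709 to 10051). Its tetraploid libraries had 139, 133 and 141 CPM at mitosis, against 0 counts at meiosis (at least 805-fold higher). BcaB01g06048 varied more between replicates, at 62.8, 84.5 and 85.4 CPM in haploid anthers at mitosis, against 0, 2 and 0 counts at meiosis (ratio 2054, exact 95% counting interval 559 to 16693). All 3 of its haploid mitosis libraries lay below the tetraploid ones, which had 112, 125 and 104 CPM, against 0 counts at meiosis (at least 664-fold higher).

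**Figure D2:**
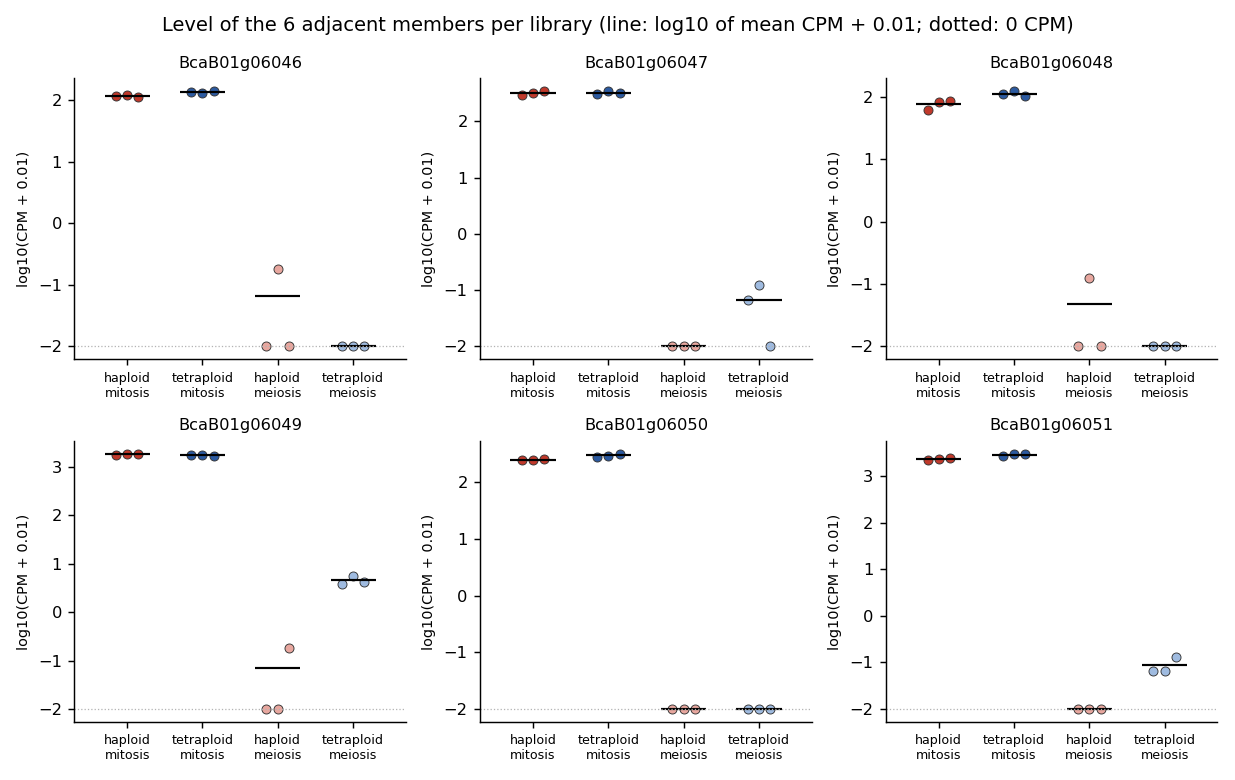
Level of each of the 6 adjacent genes in every library as log10(CPM + 0.01), for haploid mitosis, tetraploid mitosis, haploid meiosis and tetraploid meiosis; points are libraries, lines are log10 of the mean CPM + 0.01 (n = 3), and the dotted line marks 0 CPM. Mitosis libraries lie far above meiosis libraries in every panel, and BcaB01g06049 is the 1 gene with tetraploid meiosis libraries above 1 CPM.

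The 74 genes took 0.511% ± 0.0174 of all counts in haploid anthers at mitosis, against 0.0604% ± 5.46e-04 at meiosis (SD, n = 3). In tetraploid anthers they took 0.618% ± 0.0129 at mitosis, against 0.0530% ± 9.22e-04 at meiosis. At mitosis the block of 6 accounted for 0.457% ± 0.0174 in haploid anthers and 0.525% ± 0.0137 in tetraploid anthers. The other 68 genes together showed no such stage difference in the haploid. They took 0.0540% ± 6.57e-04 of counts in haploid anthers at mitosis, against 0.0603% ± 5.41e-04 at meiosis. In tetraploid anthers they took 0.0937% ± 0.00150 at mitosis, against 0.0525% ± 8.54e-04 at meiosis. The haploid order turned with the scaling. On TMM-scaled library sizes, an alternative added after seeing the data, the 68 genes took 0.0586% ± 8.65e-04 in haploid anthers at mitosis, against 0.0568% ± 6.17e-04 at meiosis. In tetraploid anthers the share on that scale was 0.0988% ± 0.00158 at mitosis, against 0.0492% ± 7.11e-04 at meiosis. Outside the block the summed share was thus higher at mitosis in the tetraploid on both scales, while no direction is given for the haploid. Most of the tetraploid difference came from BcaB01g06010 and BcaB01g06017, whose levels are given below, and not from the 68 genes at large.

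The other 16 genes at least 4-fold higher at mitosis in a form were far less abundant, apart from BcaB01g06010 and BcaB01g06017, and were spread over the stretch from BcaB01g06002 to BcaB01g06069. In both forms these were BcaB01g06002, BcaB01g06018, BcaB01g06021 and BcaB01g06045. BcaB01g06002 had 5.70, 5.23 and 5.35 CPM at mitosis, against 0.0573, 0.397 and 0.293 CPM at meiosis in haploid anthers (ratio 21.8). The tetraploid libraries had 19.9, 18.5 and 23.0 CPM at mitosis, against 0.952, 0.447 and 0.237 CPM at meiosis (ratio 37.5). BcaB01g06018 had 5.29 ± 0.453 CPM at mitosis, against 0.363 ± 0.173 CPM at meiosis in haploid anthers, and 2.51 ± 0.475 CPM at mitosis, against 0.399 ± 0.225 CPM at meiosis in tetraploid anthers. BcaB01g06021 was near the 1 CPM limit, at 1.36 ± 0.410 CPM in haploid and 1.82 ± 0.501 CPM in tetraploid anthers at mitosis. By ID several of the 16 were neighbours, BcaB01g06009 with BcaB01g06010, BcaB01g06016 with BcaB01g06017 and BcaB01g06018, and BcaB01g06040 with BcaB01g06041.

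In the tetraploid alone 7 genes met the rule, BcaB01g06009, BcaB01g06010, BcaB01g06016, BcaB01g06017, BcaB01g06053, BcaB01g06066 and BcaB01g06069. BcaB01g06009 had 1.91 ± 0.648 CPM at mitosis, against 0.480 ± 0.0953 CPM at meiosis in haploid anthers (ratio 3.97), and 1.37 ± 0.261 CPM at mitosis, against 0.267 ± 0.184 CPM at meiosis in tetraploid anthers (ratio 5.13). It thus lay just under the 4-fold limit in the haploid and above it in the tetraploid, and meeting the rule in 1 form does not show that the forms differ. In the haploid alone 5 genes met it, BcaB01g06040, BcaB01g06041, BcaB01g06043, BcaB01g06057 and BcaB01g06064. BcaB01g06043 had 6.52 ± 1.65 CPM at mitosis, against 0.822 ± 0.325 CPM at meiosis in haploid anthers (ratio 7.93), and 4.46 ± 0.912 CPM at mitosis, against 1.69 ± 0.763 CPM at meiosis in tetraploid anthers (ratio 2.64). BcaB01g06057 had 5.21 ± 0.685 CPM at mitosis, against 1.25 ± 0.0668 CPM at meiosis in haploid anthers (ratio 4.18), and 3.13 ± 0.328 CPM at mitosis, against 0.852 ± 0.148 CPM at meiosis in tetraploid anthers (ratio 3.68). BcaB01g06064 had 0 counts in all 6 meiosis libraries, and at mitosis 10, 18 and 18 counts in haploid and 8, 12 and 9 counts in tetraploid anthers, so its haploid mean of 1.02 CPM passed the 1 CPM limit and its tetraploid mean of 0.633 CPM did not.

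Runs of neighbouring IDs that were all at least 4-fold higher at mitosis in both forms were counted over the 89749 genes placed on chromosomes. Of 242 runs of at least 2 genes, 32 held at least 3 genes and 4 held at least 5. The longest had 7 genes, BcaB01g06045 to BcaB01g06051, and no other run had 6 or more. At a 16-fold minimum the run was 6 genes long, from BcaB01g06046, again the longest. The stretch was chosen for this pattern, so the rank is a description. BcaB01g06045, at the edge of the run, had 34, 33 and 49 counts in haploid anthers at mitosis, against 0, 2 and 0 counts at meiosis (ratio 67.6, exact 95% counting interval 18.1 to 558). In tetraploid anthers it had 200, 207 and 244 counts at mitosis, against 0, 2 and 1 counts at meiosis (ratio 249, exact 95% counting interval 84.7 to 1209). On the other side BcaB01g06052 reached only 0.482 ± 0.290 CPM in haploid and 0.806 ± 0.194 CPM in tetraploid anthers at mitosis (SD, n = 3).

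The count and FPKM tables gave different pictures of 2 genes of the block. Dividing counts by FPKM and by the library total gives the gene length that the values imply, and over the 40386 genes with at least 10 counts in all 6 mitosis libraries its median was 1223 bases. For BcaB01g06048 it was 34.7 bases (28.9 to 44.1 over the 6 mitosis libraries), with 0.173% of those genes below it. For BcaB01g06047 it was 105 bases (85.8 to 121), with 0.691% below it. The other 4 genes of the block implied 279 to 988 bases. Mean FPKM of BcaB01g06047 at mitosis was therefore high for its counts, at 2613 in haploid and 3313 in tetraploid anthers. That of BcaB01g06048 was high too, at 2054 in haploid and 2991 in tetraploid anthers. Whether reads shared between near-identical copies entered the tables differently was not tested, and the levels of these 2 genes are uncertain. For 8 of the 74 genes an FPKM above 0 stood beside a count of 0 in at least 1 library. That share was not counted over all genes, and genes before the stretch, such as BcaB01g05935, showed the same. BcaB01g06026, with no count in any library, was above 0 FPKM in 9 of the 12.

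**Figure D3:**
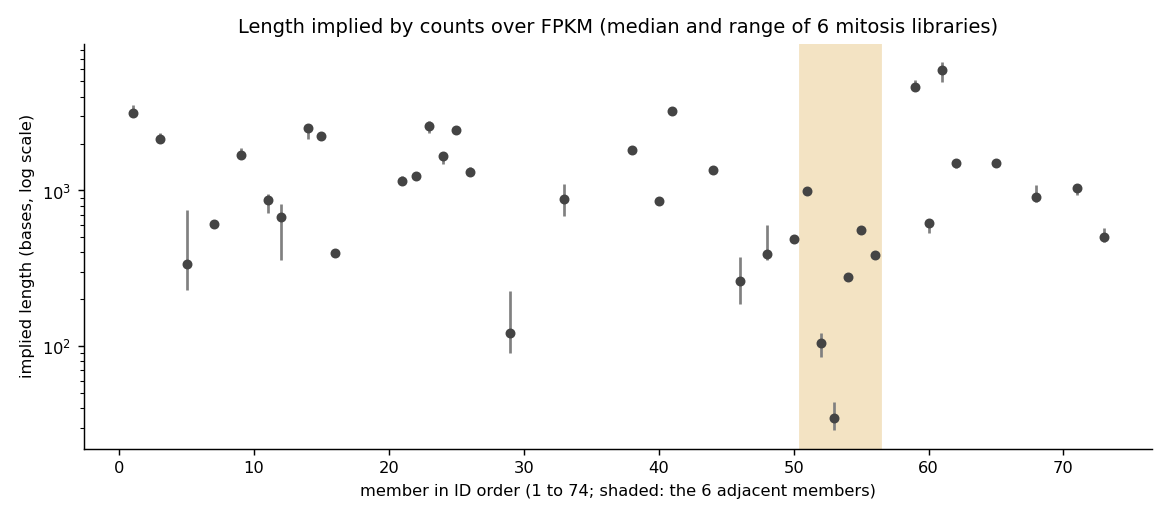
Gene length implied by counts over FPKM, in bases on a log axis, for the 39 genes of the stretch with at least 10 counts in all 6 mitosis libraries, in ID order; points are medians, bars the range over these libraries, and the block of 6 is shaded. BcaB01g06048, at 34.7 bases, and BcaB01g06047, at 105 bases, lie lowest among the shaded genes.

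Haploid and tetraploid anthers were compared at each stage with a test, since the stretch was chosen on the stages and not on the forms. Of the 74 genes 50 passed the filter on low counts and were tested. At mitosis 25 of the 50 differed between the forms (edgeR's quasi-likelihood test, adjusted p under 0.05), against 47.7% of all genes tested, so the share in the stretch was near the background. Higher in the haploid were 9 (23.3% of all genes tested) and lower were 16 (24.4%). For all 25 the haploid libraries did not overlap the tetraploid ones. That share was not counted over all genes and rests on the same libraries as the calls, so nothing is read from it. The median log2 fold change, haploid over tetraploid, was -0.02 over the tested genes of the stretch and 0.02 over all genes tested.

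Within the block of 6 the differences between forms at mitosis were under 2-fold. BcaB01g06051 was lower in the haploid, at 2366 ± 122 CPM in haploid and 2930 ± 133 CPM in tetraploid anthers (log2 fold change -0.31, SE 0.04, adjusted p = 3.39e-08, edgeR). BcaB01g06048 was lower too, at 77.6 ± 12.8 CPM in haploid and 114 ± 10.5 CPM in tetraploid anthers (-0.55, SE 0.09, adjusted p = 2.33e-06, edgeR). So were BcaB01g06050 (-0.26, SE 0.05, adjusted p = 4.38e-05, edgeR) and BcaB01g06046 (-0.21, SE 0.06, adjusted p = 0.00537, edgeR). BcaB01g06049 did not pass, at 1827 ± 28.7 CPM in haploid and 1733 ± 25.8 CPM in tetraploid anthers (0.08, SE 0.04, adjusted p = 0.159, edgeR), but passed when only the mitosis libraries were fitted (adjusted p = 0.0101, edgeR). BcaB01g06047 did not pass with counts (-0.03, SE 0.05, adjusted p = 0.667, edgeR) and was lower in the haploid with FPKM (-0.34, SE 0.05, adjusted p = 1.91e-04, limma-trend on log2(FPKM + 1)). With a pseudocount of 0.1 the FPKM fit lost the calls of BcaB01g06046, BcaB01g06048 and BcaB01g06051, with adjusted p = 0.485, 0.168 and 0.109 (limma-trend). Their log2 fold changes of -0.25, -0.54 and -0.33 were the same as at a pseudocount of 1. Their SEs were larger, at 0.27, 0.30 and 0.16, against 0.07, 0.09 and 0.06.

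Outside the block some genes differed more. At mitosis 13 genes differed by at least 2-fold with an adjusted p under 0.05, against 19.7% of all genes tested, 3 of them higher in the haploid and 10 lower. The most negative was BcaB01g06010, at 35.6, 32.9 and 38.7 CPM in haploid anthers, against 316, 311 and 296 CPM in tetraploid anthers (log2 fold change -3.10, SE 0.07, adjusted p = 2.74e-28, edgeR). BcaB01g06069, the last gene of the stretch, had 16, 3 and 6 counts in haploid anthers, against 34, 56 and 55 counts in tetraploid anthers (-2.51, SE 0.50, adjusted p = 1.13e-04, edgeR). For each gene every haploid library lay below every tetraploid one. BcaB01g06045, next to the block, had 2.55 ± 0.556 CPM in haploid and 14.2 ± 1.48 CPM in tetraploid anthers (-2.47, SE 0.22, adjusted p = 3.10e-11, edgeR).

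BcaB01g06002, one of the 10 genes higher at mitosis in both forms, had 5.70, 5.23 and 5.35 CPM in haploid anthers, against 19.9, 18.5 and 23.0 CPM in tetraploid anthers at mitosis (-1.91, SE 0.18, adjusted p = 1.05e-10, edgeR). BcaB01g06039 had 9.68 ± 0.265 CPM in haploid and 30.6 ± 0.716 CPM in tetraploid anthers (-1.66, SE 0.09, adjusted p = 1.19e-16, edgeR). BcaB01g06006 had 5.61 ± 1.35 CPM in haploid and 17.7 ± 0.142 CPM in tetraploid anthers (-1.66, SE 0.13, adjusted p = 1.35e-12, edgeR). These last 2 were not among the genes higher at mitosis. At meiosis BcaB01g06006 stood at 16.6 CPM in haploid and 17.2 CPM in tetraploid anthers, so its haploid mitosis mean was the low one of the 4. The other 4 lower by at least 2-fold were BcaB01g06007, BcaB01g06016, BcaB01g06053 and BcaB01g06066, with log2 fold changes from -1.64 to -1.07. The call of BcaB01g06053 was lost without replicate 3 of haploid mitosis (adjusted p = 0.0505, edgeR) or of tetraploid mitosis (adjusted p = 0.0620, edgeR).

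Higher in the haploid at mitosis was BcaB01g06040, with 33, 44 and 47 counts in haploid anthers, against 4, 4 and 1 counts in tetraploid anthers (log2 fold change 3.75, SE 0.57, adjusted p = 1.81e-06, edgeR). With FPKM its log2 fold change was smaller, at 2.13 with a pseudocount of 1 and 2.61 with 0.1 (limma-trend). In 4 libraries BcaB01g06040 had an FPKM above 0 beside a count of 0. Its neighbour BcaB01g06041 had 35, 52 and 58 counts in haploid anthers, against 13, 12 and 17 counts in tetraploid anthers (1.80, SE 0.40, adjusted p = 3.23e-04, edgeR). Both adjacent genes were weakly expressed, at 2.74 and 3.20 CPM in haploid anthers. BcaB01g06018 had 5.29 ± 0.453 CPM in haploid and 2.51 ± 0.475 CPM in tetraploid anthers (1.08, SE 0.29, adjusted p = 0.00222, edgeR). BcaB01g06032 had 2.36, 2.44 and 2.35 CPM in haploid anthers, against 0.583, 1.99 and 1.30 CPM in tetraploid anthers (0.89, SE 0.25, adjusted p = 0.00424, edgeR). That call was not made without tetraploid mitosis replicate 1, its lowest library (0.54, adjusted p = 0.0670, edgeR), or with FPKM (0.11, adjusted p = 0.489, limma-trend).

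**Figure D4:**
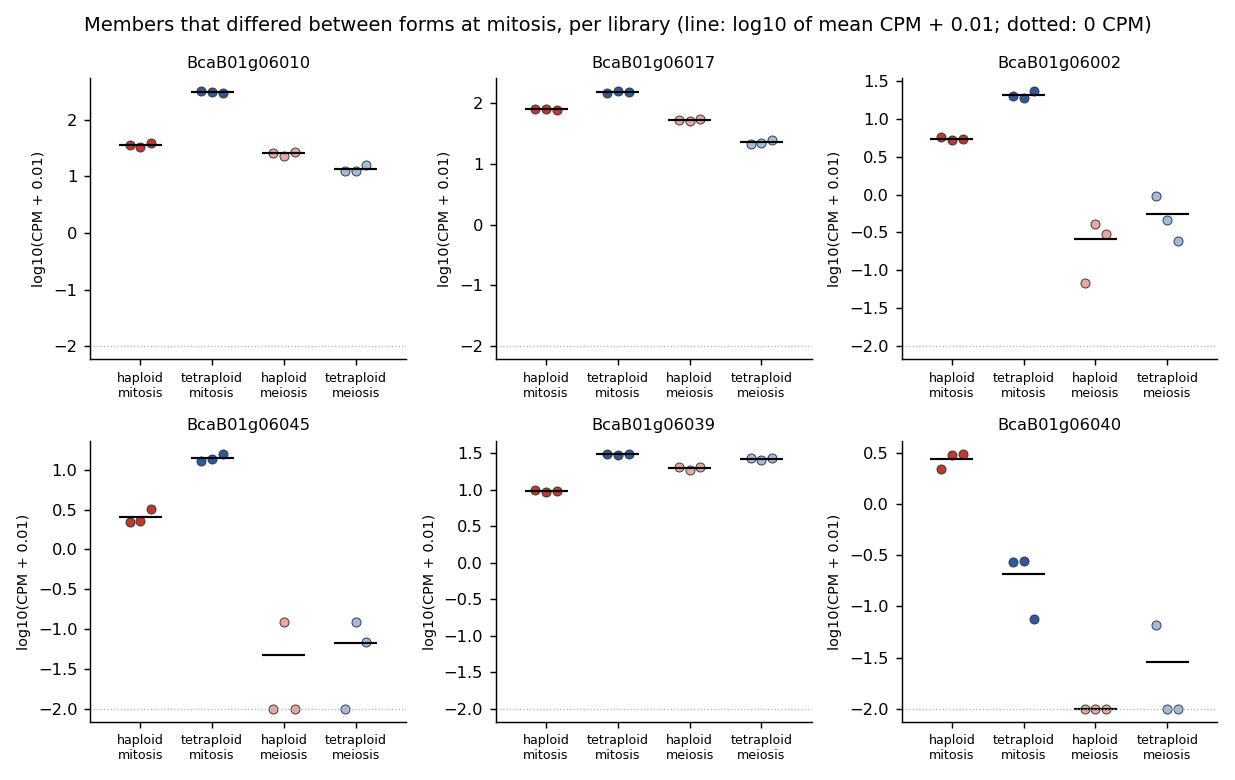
Level per library, as log10(CPM + 0.01), of 6 genes that differed between the forms at mitosis, for haploid mitosis, tetraploid mitosis, haploid meiosis and tetraploid meiosis; points are libraries, lines are log10 of the mean CPM + 0.01 (n = 3), and the dotted line marks 0 CPM. At mitosis BcaB01g06010 averages 35.7 CPM in haploid and 308 CPM in tetraploid anthers, and BcaB01g06040 is the 1 gene shown that is higher in the haploid at that stage.

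At meiosis 21 of the 50 genes tested differed between the forms (edgeR, adjusted p under 0.05), against 38.3% of all genes tested. Higher in the haploid were 12 (19.5% of all genes tested) and lower were 9 (18.8%). For 18 of the 21 the libraries of the forms did not overlap, a share that was not counted over all genes. The median log2 fold change was 0.15 over the tested genes of the stretch and 0.00 over all genes tested. A difference of at least 2-fold was called for 8 genes, against 9.46% of all genes tested, 2 higher in the haploid and 6 lower. The filter used all 4 groups, so genes high only at mitosis, such as BcaB01g06050, were among the 50. With only the meiosis libraries fitted, 31 genes of the stretch were tested and 19 called. No share over all genes is given for that fit, so nothing is read from the shares at meiosis.

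BcaB01g06049, of the block, was lower in the haploid at meiosis, with 0, 0 and 3 counts in haploid anthers, against 69, 98 and 71 counts in tetraploid anthers (adjusted p = 2.56e-17, edgeR). The ratio of haploid over tetraploid CPM was 0.0130 (exact 95% counting interval 0.00261 to 0.0376). BcaB01g06037 had 2, 1 and 0 counts in haploid anthers, against 34, 35 and 46 counts in tetraploid anthers (ratio 0.0260, counting interval 0.00535 to 0.0789, adjusted p = 1.18e-06, edgeR). At meiosis both genes were above 1 CPM in the tetraploid libraries alone. BcaB01g06044 had 54, 44 and 53 counts in haploid anthers, against 94, 115 and 110 counts in tetraploid anthers (log2 fold change -1.06, SE 0.25, adjusted p = 0.00100, edgeR). BcaB01g06051 was called lower in the haploid on 0 counts, against 1, 1 and 2 counts in tetraploid anthers (adjusted p = 0.0495, edgeR), and the call was lost with DESeq2 (adjusted p = 0.105) and on leaving out any 1 of the 12 libraries.

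BcaB01g06068 was lower in the haploid at meiosis too, with 1.72, 3.06 and 2.75 CPM in haploid anthers, against 7.67, 5.75 and 5.80 CPM in tetraploid anthers (-1.35, SE 0.24, adjusted p = 2.91e-05, edgeR). BcaB01g06043 was the sixth gene (-1.03, SE 0.35, adjusted p = 0.0204, edgeR), and its call was lost without replicate 1 or 3 of haploid meiosis or replicate 2 of tetraploid meiosis (adjusted p = 0.102, 0.0698 and 0.235, edgeR). Higher in the haploid by at least 2-fold was BcaB01g06017, at 52.2, 50.9 and 55.0 CPM in haploid anthers, against 21.2, 21.8 and 24.0 CPM in tetraploid anthers (1.24, SE 0.06, adjusted p = 2.70e-17, edgeR). BcaB01g06041 was the other, with 3, 7 and 4 counts in haploid anthers, against 0, 1 and 0 counts in tetraploid anthers (ratio 14.4, counting interval 2.15 to 597, adjusted p = 0.00671, edgeR). BcaB01g06041 was thus higher in the haploid at both stages.

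**Figure D5:**
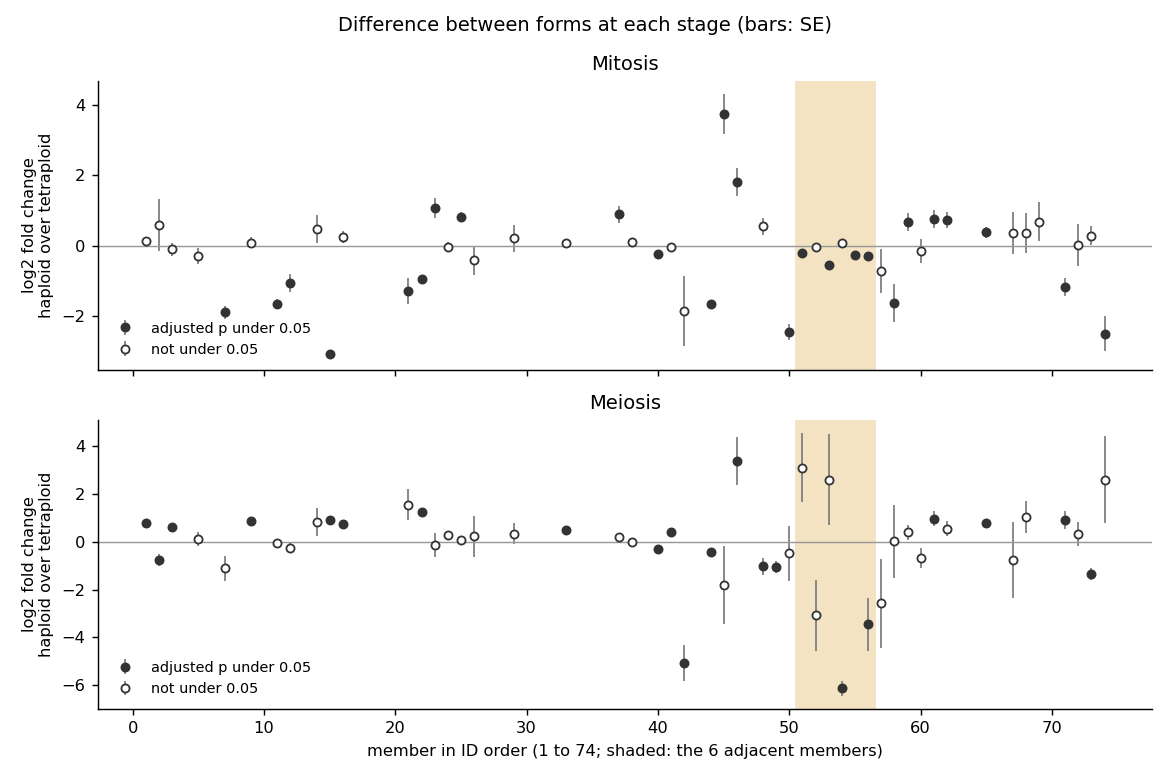
Log2 fold change, haploid over tetraploid, of tested genes of the stretch in ID order at mitosis (49 genes) and meiosis (48 genes), with bars for the SE; filled points had an adjusted p under 0.05, tested genes not drawn lack a usable SE, and the block of 6 is shaded. At mitosis the shaded genes lie close to 0, while BcaB01g06010 at -3.10 and BcaB01g06040 at 3.75 are the extremes.

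Whether the difference between forms depended on the stage was tested as an interaction. The interaction compares the stage changes of the forms, on which the stretch was chosen, so its calls are not independent of that choice. Of the 50 genes tested 14 were called (edgeR, adjusted p under 0.05), against 30.5% of all genes tested, 4 of them above 0, so more positive at mitosis (15.6%), and 10 below 0 (14.9%). With FPKM and limma-trend 29 were called at a pseudocount of 1 and 25 at 0.1, each time with 13 of the 14 among them. No share over all genes is given for the FPKM fits, so the larger numbers are not read as a trait of the stretch. Among the 14 was BcaB01g06043 (1.58, SE 0.44, adjusted p = 0.00543, edgeR), a call lost without tetraploid meiosis replicate 2 (adjusted p = 0.0521, edgeR). Less stable was BcaB01g05998 (-0.71, adjusted p = 0.0396, edgeR). Its call was lost with FPKM at either pseudocount, with DESeq2 (adjusted p = 0.0649) and on leaving out any 1 of several libraries.

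BcaB01g06010 had the most negative interaction and reversed its order between the stages. At meiosis it was higher in the haploid, at 26.1, 22.5 and 27.2 CPM in haploid anthers, against 12.3, 12.3 and 15.7 CPM in tetraploid anthers (0.91, SE 0.09, adjusted p = 1.73e-10, edgeR), whereas at mitosis it was lower. Its mitosis over meiosis ratio was 1.41 in the haploid and 22.9 in the tetraploid (interaction -4.02, SE 0.11, adjusted p = 6.98e-25, edgeR). BcaB01g06017 did the same on a smaller scale, with 78.5, 79.1 and 75.1 CPM in haploid anthers at mitosis, against 144, 155 and 149.8 CPM in tetraploid anthers (-0.95, SE 0.05, adjusted p = 1.92e-16, edgeR). Its mitosis over meiosis ratio was 1.47 in the haploid and 6.69 in the tetraploid (interaction -2.19, SE 0.08, adjusted p = 1.16e-20, edgeR).

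BcaB01g06016 was less abundant, with 15, 15 and 36 counts in haploid anthers at mitosis, against 40, 66 and 59 counts in tetraploid anthers, and 9, 6 and 6 counts in haploid anthers at meiosis, against 2, 2 and 3 counts in tetraploid anthers (interaction -2.85, SE 0.74, adjusted p = 0.00333, edgeR). The most positive interaction was that of BcaB01g06049 (6.19, SE 0.32, adjusted p = 4.69e-17, edgeR), a value that rests on its 3 counts in haploid anthers at meiosis. Its SE understates the uncertainty, as the counting interval of its haploid over tetraploid ratio at meiosis ran from 0.00261 to 0.0376. BcaB01g06068 followed (1.63, SE 0.36, adjusted p = 6.66e-04, edgeR). At mitosis it had 2.75, 4.28 and 2.09 CPM in haploid anthers and 2.85, 2.32 and 2.33 CPM in tetraploid anthers, which overlapped, unlike at meiosis.

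The 19 genes under 4-fold in both forms had mitosis over meiosis ratios from 0.337 to 3.60, and some were abundant. BcaB01g06036 had 164, 179 and 170.3 CPM in haploid anthers at mitosis, against 136, 132 and 136 CPM at meiosis. In tetraploid anthers it had 184, 179.9 and 162 CPM at mitosis, against 102, 104 and 103 CPM at meiosis. Its forms overlapped at mitosis and were apart at meiosis, where it was higher in the haploid (0.39, SE 0.05, adjusted p = 9.78e-08, edgeR). Its neighbour BcaB01g06035 had the opposite order of stages, with 68.5 ± 4.74 CPM at mitosis and 98.7 ± 4.91 CPM at meiosis in haploid anthers. In tetraploid anthers BcaB01g06035 had 81.1 ± 4.69 CPM at mitosis and 120.4 ± 1.62 CPM at meiosis, and it was lower in the haploid at mitosis (-0.24, SE 0.06, adjusted p = 8.35e-04, edgeR) and at meiosis (-0.29, SE 0.05, adjusted p = 7.63e-05, edgeR). The first gene of the stretch, BcaB01g05996, had 62.8 ± 3.78 CPM in haploid and 57.5 ± 2.35 CPM in tetraploid anthers at mitosis, where the difference did not pass (0.13, SE 0.07, adjusted p = 0.142, edgeR). At meiosis it had 37.4 ± 1.98 CPM in haploid and 21.8 ± 2.45 CPM in tetraploid anthers (0.78, SE 0.08, adjusted p = 5.14e-10, edgeR).

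A few genes ran against the name of the stretch. BcaB01g06044, directly before BcaB01g06045 and the run, had 0 counts in all 6 mitosis libraries, and was at least 14.6-fold lower at mitosis than at meiosis in the haploid and at least 31.0-fold lower in the tetraploid. BcaB01g06032 had 2.38 ± 0.0520 CPM at mitosis, against 35.0 ± 1.84 CPM at meiosis in haploid anthers, and 1.29 ± 0.705 CPM at mitosis, against 30.5 ± 1.71 CPM at meiosis in tetraploid anthers. BcaB01g05997, the second gene of the stretch, had 0.198 ± 0.111 CPM at mitosis, against 3.35 ± 0.786 CPM at meiosis in haploid anthers, and 0.130 ± 0.0640 CPM at mitosis, against 5.74 ± 1.30 CPM at meiosis in tetraploid anthers. These 3 were lower at mitosis in both forms. BcaB01g06020 met the rule in the tetraploid alone, with 8.58 ± 1.54 CPM at mitosis and 31.8 ± 1.19 CPM at meiosis in haploid anthers, and 4.88 ± 0.263 CPM at mitosis and 30.6 ± 1.40 CPM at meiosis in tetraploid anthers (interaction 0.75, SE 0.17, adjusted p = 5.55e-04, edgeR). BcaB01g06037 was the other, at 0.263 ± 0.238 CPM at mitosis and 2.19 ± 0.460 CPM at meiosis in tetraploid anthers.

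On either side fewer genes were higher at mitosis than in the stretch, which was chosen on that contrast, so nothing is read from the difference. Among the 74 IDs before the stretch 0 were at least 4-fold higher at mitosis in the haploid (4.63% of all genes) and 1 was in the tetraploid (7.03%). At least 4-fold lower in both forms were 5 (6.76%, against 2.76% of all genes). The nearest ID before the stretch, BcaB01g05995, had 2, 0 and 2 counts in haploid anthers at mitosis, against 84, 116 and 91 counts at meiosis. The tetraploid libraries had 0, 1 and 2 counts at mitosis, against 60, 88 and 65 counts at meiosis. The stretch was thus preceded by a gene with the opposite pattern, and BcaB01g05994 before it was under 1 CPM in every group. Among the 74 IDs after the stretch 5 were higher in each form (6.76%, against 4.63% of all genes in the haploid and 7.03% in the tetraploid). Of these, 4 were higher in both forms (5.41%, against 3.74% of all genes), and 0 of the 74 were lower. The first ID after it, BcaB01g06070, had no count in any library, and BcaB01g06071 had 1 count in all. The 4 higher in both forms, BcaB01g06096, BcaB01g06101, BcaB01g06119 and BcaB01g06130, neighboured neither the stretch nor one another. The most abundant, BcaB01g06096, had 254 ± 17.2 CPM in haploid and 220.0 ± 5.06 CPM in tetraploid anthers at mitosis, and 24.4 ± 1.37 CPM in haploid and 24.6 ± 1.84 CPM in tetraploid anthers at meiosis.

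At least 1 CPM in a group was reached by 46 of the 74 genes of the stretch (62.2%), by 40 of 74 (54.1%) on each side and by 50.4% of all genes in the table. No count in any library was seen for BcaB01g06023, BcaB01g06025, BcaB01g06026, BcaB01g06027 and BcaB01g06059 (6.76% of the stretch). On the sides there were 14 such genes before the stretch (18.9%) and 11 after it (14.9%). The share was 21.0% over B01 and 22.8% over all genes. A count of 0 allows up to 3 counts in a library. With 0 counts in all 12 libraries the limit is lower, and expression under it was not detectable at this depth. For BcaB01g06026, above 0 FPKM in 9 libraries, the counts and FPKM values disagree. The 23 genes under 1 CPM in every group reached at most 0.956 CPM as a group mean, with a median of 21.0 counts over all 12 libraries. Among them BcaB01g06038 had 17, 8 and 14 counts in tetraploid anthers at mitosis and 0 counts in the other 9 libraries.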

How the data were processed

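The authors deposited whole-number counts of reads per gene and a table of FPKM values (fragments per kilobase of gene and per library size) for the same 12 libraries, per the labels and file headers. The submitters' processing notes name Bowtie2 2.2.3, HISAT2 2.1.0, TopHat2 and featureCounts 2.0.1, with no role or order. Build, annotation, strand and the handling of multi-mapped reads were not stated in those notes, the labels or the headers. Counts were tested with edgeR 4.0.16 in R 4.3.3: TMM factors, filterByExpr, 1 quasi-likelihood fit of 4 group means over all 12 libraries, and Benjamini-Hochberg adjustment over the 51860 genes tested, which held 99.8% of counts. The common biological coefficient of variation was 0.0839. SEs were taken as the log2 fold change over the square root of F. FPKM values were tested with limma 3.58.1 (limma-trend) on log2(FPKM + 1) or log2(FPKM + 0.1), a scale that understates the change of low genes, and DESeq2 1.42.0 was an alternative on counts. The scripts were tested on simulated data. Intervals are exact binomial, at 95%, and with the floor of 3 counts per library cover counting error only. Groups come from the labels. The members and lists were chosen with earlier results of these data known. Members named by rule were the 12 most abundant at mitosis, the 4 most positive and 4 most negative differences between forms at mitosis, the 4 most abundant of those not higher at mitosis, both ends with 2 IDs on each side, and the 2 extremes of the interaction in each direction; other members named were chosen after their values were seen. No sequences are shown, as none were used here.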

Additional observations from a re-analysis of the deposited data

Results flagged for a closer look

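In 4 genes of the stretch the difference between haploid and tetraploid anthers differed between mitosis and meiosis. The test was the interaction term of the fit across all genes (edgeR's quasi-likelihood test). These genes are the extremes of that term by the naming rule. The interaction compares the stage changes on which the stretch was chosen, so these calls are not independent of that choice. BcaB01g06049 had an interaction of 6.19 (SE 0.32, adjusted p = 4.69e-17, edgeR). That value rests on 3 counts in haploid anthers at meiosis, and its SE understates the uncertainty. BcaB01g06068 had an interaction of 1.63 (SE 0.36, adjusted p = 6.66e-04, edgeR). BcaB01g06010 had an interaction of -4.02 (SE 0.11, adjusted p = 6.98e-25, edgeR). BcaB01g06016 had an interaction of -2.85 (SE 0.74, adjusted p = 0.00333, edgeR). Groups of 3 libraries are too small for a check of single libraries that stand apart.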

How the results depend on the processing

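The interaction called 29 genes with FPKM at a pseudocount of 1 and 25 at 0.1, against 14 with counts. The share over all genes is not given for the FPKM fits, so nothing is read from that rise. The share of higher calls in the interaction was 28.6% with counts, 38.9% with no filter on low counts (7 of 18), 41.2% with DESeq2 (7 of 17), and 37.9% and 40.0% with FPKM; the cause was not tested. By construction a 2-fold minimum raised the haploid count of genes higher at mitosis to 24 and a 16-fold minimum lowered it to 7, against 15, and the tetraploid count was 11 at 16-fold, against 17. On TMM-scaled library sizes the 74 genes took 0.554% (BCMi), 0.652% (BBCCMi), 0.0568% (BCMe) and 0.0496% (BBCCMe), and of summed FPKM 1.41% (BCMi), 1.70% (BBCCMi), 0.0362% (BCMe) and 0.0349% (BBCCMe). The 68 genes outside the block took 0.0586% (BCMi), 0.0988% (BBCCMi), 0.0568% (BCMe) and 0.0492% (BBCCMe) on TMM-scaled sizes, and 0.0333% (BCMi), 0.0543% (BBCCMi), 0.0361% (BCMe) and 0.0333% (BBCCMe) of summed FPKM, alternatives chosen after seeing the data. Without the most abundant gene the mitosis shares were 0.293% (BCMi) and 0.341% (BBCCMi). Leaving out 1 library at a time gave 15 to 16 genes higher at mitosis in the haploid and 16 to 18 in the tetraploid, 23 to 26 genes called between forms at mitosis, 17 to 20 at meiosis and 13 to 17 in the interaction, with shares of 0.502 to 0.519% (BCMi), 0.614 to 0.626% (BBCCMi), 0.06 to 0.0606% (BCMe) and 0.0527 to 0.0535% (BBCCMe). Same-numbered libraries did not deviate together (r from -0.0186 to 0.0147, own number best in 8 of 36 comparisons), and with a replicate block 24 genes were called at mitosis, 19 at meiosis and 15 in the interaction. For the 21 named genes with a value between forms at mitosis, 386 alternative values kept direction and side of the threshold, 6 lost the call, 3 gained it, 4 without a call moved, and 0 reversed a call. Genes with few counts, and those whose counts and FPKM imply unlike lengths, limit what can be said of levels.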
